A study of Homo sapiens with 36 samples.

Results

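The genes described here are 7 targets of the transcription factor p53 that act in metabolism and redox balance: *TIGAR*, *SAT1*, *GLS2*, *FDXR*, *RRM2B*, *TP53INP1* and *SPATA18*. They were taken by name, for their known roles and with earlier results of these data known, from the 62757 genes listed in the count tables. Of the 7, 5 had enough reads to be tested, whereas *GLS2* and *SPATA18* did not. The question put to the data was how oxaliplatin (OXPT), loss of *FBXW7*, silencing of *HDAC4* and the degrader #11 changed the mRNA of these genes.

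RNA-seq was performed in HCT-116, a human colorectal carcinoma cell line that retains wild-type p53. WT cells were compared with *FBXW7*-/- cells (KO), a commercial knockout line that lacks the substrate-recognition subunit of an SCF ubiquitin ligase. For 48 h KO cells were exposed to 1 of 3 conditions: a control esiRNA (esiCT), an esiRNA that silences *HDAC4* (esiHDAC4), or esiCT combined with #11, a PROTAC that targets class IIa HDACs for degradation. Each of these was left untreated or was exposed to 50 µM OXPT, a platinum drug that crosslinks DNA, during the last 24 h. In this way 24 libraries formed 8 groups of 3, an untreated and an OXPT group for each of 4 arms, which are called WT, KO esiCT, KO esiHDAC4 and KO #11. The dose of #11 is given both as 1 µM and as 10 µM in the labels, and the esiRNA of the WT groups is given as control in the title and as esiHDAC4 in the treatment entry, so neither is settled. Nothing in the labels says that replicates came from separate cultures, so the p-values measure the spread between these libraries, which may be technical.

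Upon DNA damage p53 is stabilized and binds DNA elements near its target genes, which leads to cell cycle arrest, repair or death. A further branch of its targets adjusts metabolism: some limit glycolysis or provide NADPH, some supply nucleotides for repair, and some act on mitochondria, polyamines or reactive oxygen species. Several of these genes also respond to other stress pathways.

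The libraries held between 10725966 and 20527222 reads on genes (median 14510758). Replicate 3 of KO esiCT OXPT had the lowest total, the highest share of unmapped reads (22.3%, against a median of 9.29%) and the lowest TMM factor (0.79), so the OXPT response of each tested member in KO esiCT is also given without it. *HDAC4* ranged from 8.73 to 14.8 CPM in untreated KO esiHDAC4 and from 13.9 to 24.7 CPM in untreated KO esiCT, so the groups overlapped, whereas with OXPT the ranges of 3.31 to 4.16 and 5.67 to 7.44 CPM were apart. *FBXW7* mRNA was present in the libraries labelled KO (16.8 ± 1.33 CPM, SD, n = 3, in untreated KO esiCT) as in untreated WT (20.9 ± 3.57 CPM), and since the edited part of the gene is not resolved by counts over the whole gene, this checks nothing. The epithelial markers *EPCAM*, *CDH1*, *KRT8*, *KRT18* and *KRT19* summed to 5077 to 10200 CPM in the untreated and 8403 to 21410 CPM in the OXPT libraries. All 4 immune markers stayed under 1 CPM, while 3 of 4 fibroblast and 2 of 3 endothelial markers did, the exceptions being *COL1A1* (fibroblast sum of 25.0 to 53.8 CPM untreated and 35.8 to 77.0 CPM with OXPT) and *VWF* (up to 2.14 CPM). The part of these markers in the results below was not tested.

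p53 binds decamers that follow a known consensus, usually in pairs, so the 250 bases before each RefSeq start site (GRCh38.p14) were searched for exact matches to that decamer, which reads the same on both strands. Windows were found for 5 of the 7 genes, and those of *RRM2B* and *TP53INP1* were not found. *FDXR* held 1 match, at positions -11 to -2 before the first of its 2 listed starts, and its second window held none. The 30 bases around it (chr17:74872986-74873015, minus strand) are shown because *FDXR* had the largest OXPT response of the tested members, with the decamer in capitals:
FDXR decamer: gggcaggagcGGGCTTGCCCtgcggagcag
In the gene annotation (GENCODE 44) some *FDXR* transcripts start further upstream, so the match also lies in their 5′ UTR. The windows of *TIGAR*, *SAT1*, *GLS2* and *SPATA18* held no exact match. Those of *TIGAR* and *GLS2* lie inside the genes as annotated in GENCODE 44, where *TIGAR* begins further upstream, at chr12:4307763. The sequence before that start was not searched. The windows of *TIGAR* (chr12:4320963-4321212, plus strand), which was called in the KO arms, and of *SAT1* (chrX:23782923-23783172, plus strand), which was not, are given in full for comparison:
TIGAR upstream: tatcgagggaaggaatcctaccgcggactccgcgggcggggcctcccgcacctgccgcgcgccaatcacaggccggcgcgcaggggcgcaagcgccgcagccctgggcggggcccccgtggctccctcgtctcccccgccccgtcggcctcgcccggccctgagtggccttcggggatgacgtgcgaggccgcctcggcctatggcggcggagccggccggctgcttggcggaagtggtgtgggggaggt
SAT1 upstream: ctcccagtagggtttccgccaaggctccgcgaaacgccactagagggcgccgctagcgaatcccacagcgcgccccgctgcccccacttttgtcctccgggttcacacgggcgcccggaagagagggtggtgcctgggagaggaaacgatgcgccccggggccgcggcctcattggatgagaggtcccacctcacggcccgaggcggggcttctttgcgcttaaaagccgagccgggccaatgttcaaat
An exact match was found in 5.57% of all 35116 windows of this length, and 2 or more in 0.216%. The search covers these windows only, and says nothing about introns or more distant elements.

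After OXPT, *FDXR* and *TP53INP1* rose in WT cells and in all 3 KO arms, by about 4-fold or more in each. *TIGAR* was called higher in the 3 KO arms and not in WT, although the difference between WT and KO esiCT did not pass the test. *RRM2B* and *SAT1* were higher with OXPT in nearly all same-numbered library pairs but were not called in the main fit, which has no replicate term. A gene is called here when edgeR's quasi-likelihood test gives a Benjamini-Hochberg adjusted p below 0.05 over the 12356 genes tested and the fold change exceeds 1.5. By this rule 3 of the 5 tested members were called higher in KO esiCT, where 6.23% of all genes were. The count was again 3 in KO esiHDAC4 (6.44% of all genes) and 3 in KO #11 (5.94% of all genes), and it was 2 in WT (5.1% of all genes). DESeq2 gave 3, 3, 3 and 2 as well. With the replicate number as a block, 4, 3, 3 and 2 members were called, as *SAT1* then passed in KO esiCT. Of all genes tested, 1946, 2061, 1713 and 1885 were called with the block, in either direction. OXPT and untreated libraries did not overlap for 3 members in KO esiCT (15.3% of all genes were higher without overlap), for 3 in KO esiHDAC4 (18.8%), for 4 in KO #11 (22.4%) and for 2 in WT (11.5%).

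**Figure D1:**
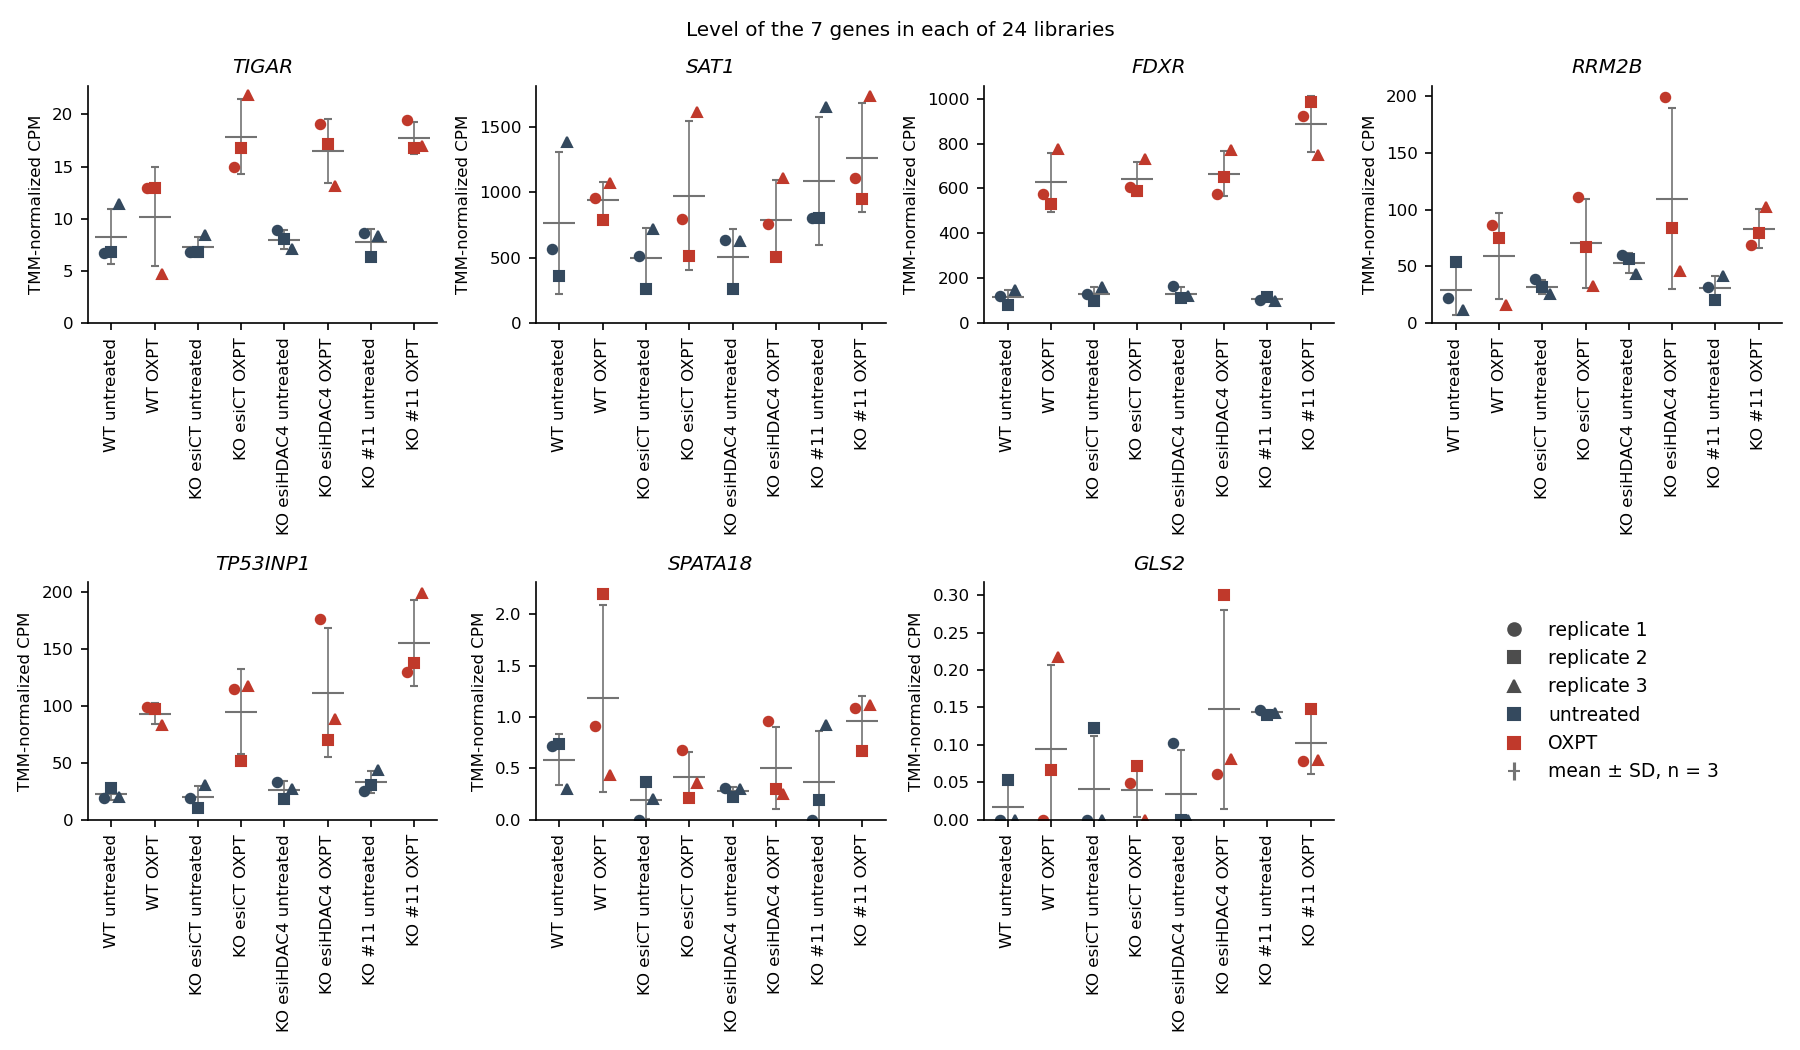
TMM-normalized CPM of each gene (vertical axis, from 0) in the 24 libraries, by group (horizontal axis), with the replicate number as the symbol, untreated in dark blue and OXPT in red. Grey bars are the mean ± SD of 3 libraries. *FDXR* and *TP53INP1* separate the OXPT from the untreated libraries in every arm, whereas *SAT1* overlaps in each, and *GLS2* stays at or below 0.301 CPM throughout.

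*TIGAR* (ENSG00000078237.7, chr12:4307763-4360028, plus strand) encodes a phosphatase that lowers fructose bisphosphate, which slows glycolysis and favours NADPH production in the pentose phosphate pathway. In KO esiCT it was at 6.78, 6.77 and 8.45 CPM untreated and at 14.95, 16.8 and 21.9 CPM with OXPT. KO esiHDAC4 libraries held 8.87, 8.06 and 7.06 CPM untreated and 19.1, 17.1 and 13.1 CPM with OXPT. For KO #11 the values were 8.67, 6.32 and 8.33 CPM untreated and 19.5, 16.8 and 16.9 CPM with OXPT. In each of these 3 arms every OXPT library was above every untreated one. WT cells gave 6.69, 6.82 and 11.4 CPM untreated and 12.98, 12.9 and 4.72 CPM with OXPT, so that replicate 3 of WT went the other way from the other 11 same-numbered pairs.

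The log2 fold change of *TIGAR* was 1.28 ± 0.31 (SE, edgeR adjusted p = 0.00943) in KO esiCT, and it was 1.11 (adjusted p = 0.0391) without replicate 3 of KO esiCT OXPT. It was 1.04 ± 0.31 (adjusted p = 0.0299) in KO esiHDAC4 and 1.19 ± 0.31 (adjusted p = 0.0171) in KO #11. In KO esiHDAC4 the call was lost without OXPT replicate 1 or 2 or any one of the 3 untreated libraries (log2 fold changes of 0.93, 0.97, 1.08, 1.00 and 0.94, adjusted p from 0.0748 to 0.11), and in KO #11 without OXPT replicate 1 (1.12, adjusted p = 0.069) or untreated replicate 2 (1.05, adjusted p = 0.0908). WT gave 0.31 ± 0.31 (adjusted p = 0.588), and 0.65 (adjusted p = 0.149) without its OXPT replicate 3. Same-numbered pairs 1 and 2 of WT had log2 ratios of 0.96 and 0.92, within the 0.89 to 1.41 of the KO pairs, and pair 3 had -1.27. Untreated replicate 3 of WT, at 11.4 CPM the highest of its group, had 13.8% unmapped reads and a TMM factor of 0.85. The difference between the responses of KO esiCT and WT was 0.97 ± 0.43 on the log2 scale with an unadjusted p of 0.0354 and an edgeR adjusted p of 1. Without replicate 3 of WT OXPT that difference was 0.63, still with an adjusted p of 1. On its exons 19.4% of the bases are shared with other annotated genes, mostly a readthrough gene on the same strand, and reads there are not counted.

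*SAT1* (ENSG00000130066.17, chrX:23783173-23786210, plus strand) encodes the acetyltransferase that catalyses the rate-limiting step in the breakdown of spermidine and spermine. KO esiCT libraries were at 511.0, 263.5 and 722.6 CPM untreated and at 797.8, 512.4 and 1610 CPM with OXPT. In KO esiHDAC4 the levels were 631.3, 260.7 and 628.7 CPM untreated and 756.1, 502.0 and 1110 CPM with OXPT. The treated and untreated libraries therefore overlapped, although each was higher with OXPT than the untreated library of the same number. KO #11 stood at 800.6, 802.8 and 1648 CPM untreated and at 1110, 945.2 and 1736 CPM with OXPT. WT cells had 563.2, 357.5 and 1381 CPM untreated and 956.8, 787.5 and 1069 CPM with OXPT, where replicate 3 was lower with OXPT.

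In all 8 groups replicate 3 of *SAT1* lay above its group mean, by 0.63 on the log2 scale on average, and replicate 2 lay below it, by -0.60. The log2 fold change with OXPT was 0.96 ± 0.51 in KO esiCT (edgeR adjusted p = 0.241), and 0.39 without replicate 3 of KO esiCT OXPT. With the replicate number as a block it was 0.92 (adjusted p = 0.0162), which passes the threshold. The other arms gave 0.64 ± 0.51 in KO esiHDAC4 (adjusted p = 0.467), 0.22 ± 0.50 in KO #11 (adjusted p = 0.835) and 0.29 ± 0.51 in WT (adjusted p = 0.775). The block called *SAT1* in none of these 3, with adjusted p of 0.0883, 0.538 and 0.185.

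*FDXR* (ENSG00000161513.12, chr17:74862497-74873031, minus strand) encodes ferredoxin reductase, the mitochondrial flavoprotein that passes electrons from NADPH to ferredoxins for steroid and iron-sulfur cluster synthesis. KO esiCT libraries rose from 129.8, 97.7 and 160.4 CPM to 605.8, 589.9 and 729.8 CPM. In KO esiHDAC4 they went from 164.8, 109.7 and 121.0 CPM to 573.4, 650.2 and 772.4 CPM. WT libraries held 122.0, 81.8 and 145.4 CPM untreated and 577.2, 528.7 and 777.8 CPM with OXPT. The ranges of these 3 arms overlapped with each other in both states. KO #11 started at 103.7, 114.8 and 100.3 CPM and reached 924.6, 985.9 and 746.9 CPM.

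No OXPT library of *FDXR* was below 528.7 CPM and no untreated one above 164.8 CPM. The log2 fold changes were 2.31 ± 0.24 in KO esiCT (edgeR adjusted p = 5.56e-06), 2.34 ± 0.24 in KO esiHDAC4 (adjusted p = 4.94e-06), 3.06 ± 0.25 in KO #11 (adjusted p = 2.98e-07) and 2.43 ± 0.24 in WT (adjusted p = 2.66e-06). Expressed as ratios of the group means they corresponded to 4.96-fold, 5.05-fold, 8.34-fold and 5.39-fold. Without OXPT replicate 3 the KO esiCT arm gave a log2 fold change of 2.21. The response with #11 exceeded that with esiCT alone by 0.75 ± 0.33 on the log2 scale, with an unadjusted p of 0.0326, which did not pass the adjustment (edgeR adjusted p = 0.657). Leaving out single libraries moved that difference between 0.56 and 0.91. Its replicates were closer than those of the other members, with a within-group SD of 0.28 on the log2 scale against a median of 0.37 over all genes tested.

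*RRM2B* (ENSG00000048392.13, chr8:102204502-102238961, minus strand) encodes the p53-inducible small subunit of ribonucleotide reductase, which supplies deoxynucleotides for repair and for mitochondrial DNA outside S phase. KO esiCT stood at 38.5, 31.6 and 25.9 CPM untreated and at 111.2, 66.9 and 32.9 CPM with OXPT. KO esiHDAC4 had 60.2, 56.5 and 43.2 CPM untreated and 199.6, 83.6 and 46.3 CPM with OXPT. In both arms replicate 3 barely exceeded its untreated partner while replicate 1 was about 3-fold higher. KO #11 gave 31.7, 20.5 and 41.7 CPM untreated and 68.7, 79.4 and 102.1 CPM with OXPT, the only arm in which the groups were apart. WT held 22.4, 54.3 and 11.2 CPM untreated and 86.4, 75.3 and 15.8 CPM with OXPT.

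All 12 same-numbered pairs of *RRM2B* were higher with OXPT, by log2 ratios from 0.10 to 1.95. None of the arms was called: the log2 fold change was 1.14 ± 0.59 in KO esiCT (edgeR adjusted p = 0.234), 1.04 ± 0.59 in KO esiHDAC4 (adjusted p = 0.281), 1.41 ± 0.60 in KO #11 (adjusted p = 0.151) and 1.01 ± 0.59 in WT (adjusted p = 0.316). Without replicate 3 of KO esiCT OXPT the value in that arm was 1.47 (adjusted p = 0.177). The within-group SD of 0.83 was larger than that of 93.0% of the genes tested. With the replicate block the adjusted p ran from 0.0835, in KO #11, to 0.259, in KO esiHDAC4, so the block called none either. Replicate 3 was below its group mean in 6 of 8 groups, the exceptions being both KO #11 groups.

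*TP53INP1* (ENSG00000164938.14, chr8:94925972-94949378, minus strand) encodes a stress-induced protein with antioxidant functions that also takes part in autophagy. KO esiCT libraries rose from 19.2, 10.5 and 30.1 CPM to 114.9, 51.6 and 117.6 CPM. Those of KO esiHDAC4 rose from 33.3, 18.3 and 26.6 CPM to 175.9, 70.1 and 88.6 CPM. In KO #11 the levels went from 25.0, 30.1 and 43.8 CPM to 129.6, 137.5 and 198.6 CPM, the highest group mean of this gene. WT gave 19.1, 27.6 and 19.6 CPM untreated and 99.2, 97.0 and 82.8 CPM with OXPT.

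The 12 untreated libraries of *TP53INP1* ended at 43.8 CPM and the 12 OXPT libraries began at 51.6 CPM. The log2 fold changes were 2.25 ± 0.40 in KO esiCT (edgeR adjusted p = 0.000855), 2.10 ± 0.40 in KO esiHDAC4 (adjusted p = 0.00139), 2.24 ± 0.40 in KO #11 (adjusted p = 0.000987) and 2.07 ± 0.40 in WT (adjusted p = 0.00173). Without OXPT replicate 3 the KO esiCT arm gave 2.07 (adjusted p = 0.00413). No difference between arms passed the test, the largest being 0.18 ± 0.54 between KO esiCT and WT (adjusted p = 1). A part of its exons, 225 of 5643 bases, overlaps *NDUFAF6* on the opposite strand and was not counted.

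**Figure D2:**
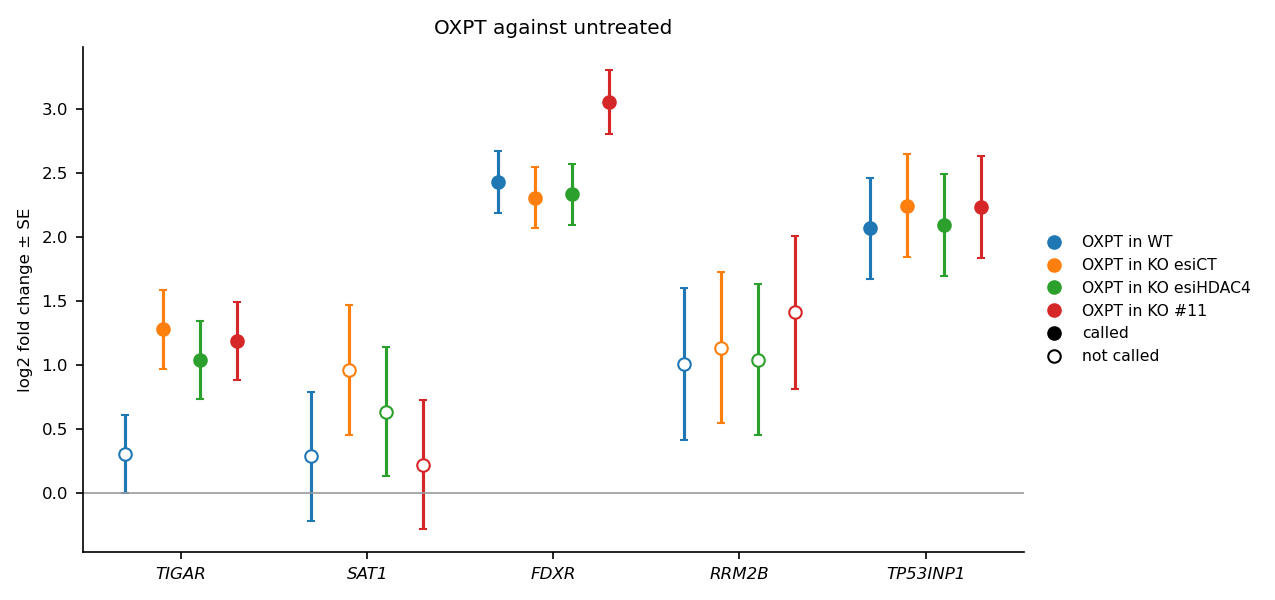
Log2 fold change of OXPT over untreated (vertical axis) for the 5 tested members (horizontal axis) in 4 arms, with the standard error of the fit as the bar. Filled points were called. *FDXR* lies between 2.31 and 3.06 and *TP53INP1* between 2.07 and 2.25 in all arms, *TIGAR* is filled in the 3 KO arms only, and *SAT1* and *RRM2B* are open throughout.

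**Figure D3:**
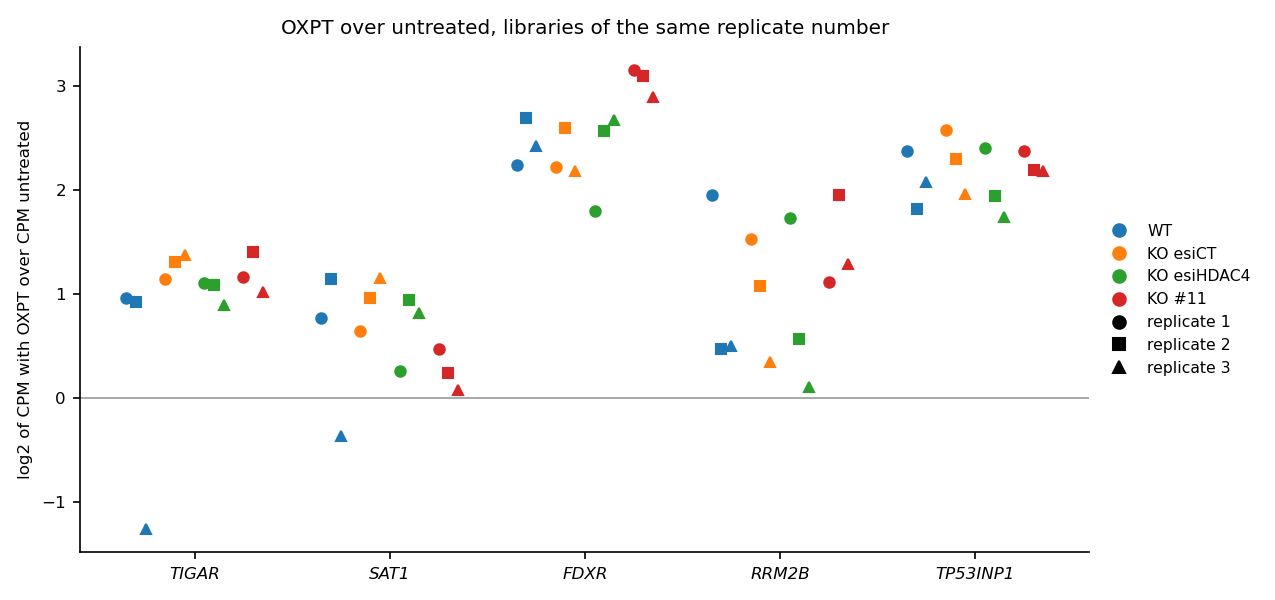
Log2 ratio of CPM with OXPT over CPM untreated (vertical axis) for the libraries of the same arm and replicate number, by gene (horizontal axis), with the arm as the colour and the number as the symbol. *RRM2B*, *FDXR* and *TP53INP1* are above 0 in 12 of 12 pairs and *TIGAR* and *SAT1* in 11, the exception in both being replicate 3 of WT (-1.27 and -0.37).

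*SPATA18* (ENSG00000163071.11, chr4:52051304-52097299, plus strand) encodes Mieap, a protein of mitochondrial quality control. It had 0 to 33 reads per library, with 2 libraries at 0, and stayed under the count minimum of 64 on average in every group. Its mean level was 0.582 CPM in untreated WT and 1.18 CPM in WT OXPT (SD 0.249 and 0.910, n = 3), and 0.189 and 0.417 CPM in KO esiCT (SD 0.185 and 0.239). KO esiHDAC4 had means of 0.274 and 0.503 CPM, and KO #11 of 0.371 and 0.957 CPM. OXPT was higher in 10 of 12 same-numbered pairs, yet the groups overlapped in every arm. Fitted without the count minimum, its log2 fold change with OXPT ran from 0.86 in KO esiHDAC4 to 1.41 in KO #11, with the lowest edgeR adjusted p at 0.294. Between KO esiCT and WT it was -1.59 ± 0.71 untreated and -1.39 ± 0.60 with OXPT, with unadjusted p of 0.0241 and 0.0215 and adjusted p of 0.924 and 0.945.

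*GLS2* (ENSG00000135423.13, chr12:56470944-56488414, minus strand) encodes the mitochondrial glutaminase that p53 induces, which feeds glutamate into glutathione. Its counts ran from 0 to 5 reads per library, with 8 of 24 libraries at 0 and group means from 0.0175 to 0.147 CPM. Of its 4141 exon bases 82.8% are shared with other annotated genes, for the most part *SPRYD4* on the opposite strand, and reads on shared bases are set aside as ambiguous in these counts. Over the 713 bases that can be counted, group means ran from 0.0245 to 0.207 CPM per kb. *SPATA18*, which shares no exon bases, had 0.0379 to 0.237 CPM per kb. How far the overlap and how far a low level account for these counts was not tested. The level of *GLS2* mRNA over the whole gene is not measurable here, and no difference was detectable at this depth.

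Per kilobase of the exon bases that can be counted, *SAT1* was the most abundant member, with group means from 208.6 to 528.4 CPM per kb. *FDXR* followed with 29.5 to 246.1 CPM per kb. *TP53INP1* (3.68 to 28.7) and *RRM2B* (5.43 to 20.4) came next, with *RRM2B* the higher in untreated WT, KO esiCT and KO esiHDAC4 and *TP53INP1* in the other groups, and *TIGAR* had 0.963 to 2.35 CPM per kb. *SPATA18* stayed at or under 0.237 CPM per kb. *SAT1* thus led in level and *FDXR* in fold change.

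In the order of the 8 group means, the 4 OXPT groups led for *FDXR*, *TP53INP1*, *RRM2B* and *TIGAR*. For *RRM2B* neighbours among the OXPT groups overlapped, and WT OXPT (59.2 CPM) also overlapped with untreated KO esiHDAC4 (53.3 CPM). For *FDXR* the order was KO #11 (885.8 CPM), KO esiHDAC4 (665.3 CPM), KO esiCT (641.8 CPM) and WT (627.9 CPM), and neighbours among these overlapped, as did neighbours among the untreated groups, which lay between 106.2 and 131.8 CPM. *TP53INP1* had the same order of OXPT groups, with means of 155.3, 111.5, 94.7 and 93.0 CPM that overlapped between neighbours, and the untreated groups lay apart below them. For both genes KO #11 OXPT did not overlap with KO esiCT OXPT, which is not its neighbour in the order. For *TP53INP1* it did not overlap with WT OXPT either. For *TIGAR* the 3 KO OXPT groups (17.9, 17.7 and 16.5 CPM) overlapped with each other in turn. They lay apart from WT OXPT (10.2 CPM), which overlapped with untreated WT (8.29 CPM). That gap was narrow, with the lowest KO OXPT library at 13.1 CPM and the highest WT OXPT library at 12.98 CPM. The WT OXPT mean includes the low replicate 3, at 4.72 CPM. The order for *SAT1* was different: both KO #11 groups came first, with means of 1264 CPM with OXPT and 1084 CPM untreated, and every neighbouring pair in the order overlapped.

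Silencing of *HDAC4* called none of the 5 members, in untreated KO cells (0.00809% of all genes called, 1 gene in all) or in OXPT-treated KO cells (0% of all genes). The largest difference was that of *RRM2B*, 0.74 ± 0.59 untreated and 0.64 ± 0.59 with OXPT on the log2 scale (edgeR adjusted p = 1 for both). Its untreated groups were apart, with 43.2 to 60.2 CPM in KO esiHDAC4 and 25.9 to 38.5 CPM in KO esiCT, whereas the OXPT groups overlapped. The share of all genes separated in this way was not computed for *HDAC4* silencing. *TP53INP1* differed by 0.39 ± 0.39 and 0.24 ± 0.38, and *SAT1* by 0.023 ± 0.50 and -0.30 ± 0.51. *FDXR* differed by 0.028 ± 0.23 and 0.052 ± 0.23.  None of the members had an unadjusted p below 0.05, and over all genes 394 and 380 had.

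With #11 none of the members was called in untreated KO cells (0.51% of all genes) or in OXPT-treated KO cells (0.121% of all genes), by edgeR or DESeq2. *SAT1* came nearest, with 1084 ± 488.8 CPM in untreated KO #11 against 499.0 ± 229.8 CPM in untreated KO esiCT (SD, n = 3), a log2 fold change of 1.12 ± 0.51 with an unadjusted p of 0.0403 and an edgeR adjusted p of 0.336. All 3 #11 libraries of *SAT1* were above all 3 esiCT libraries, which was so for 17.2% of all genes. With OXPT its difference was 0.38 ± 0.51 (adjusted p = 0.834). *TP53INP1* was higher by 0.73 ± 0.39 untreated and by 0.71 ± 0.38 with OXPT (unadjusted p of 0.0743 and 0.0757), the same size in both states. *FDXR* differed by -0.28 ± 0.23 untreated and by 0.46 ± 0.23 with OXPT (unadjusted p of 0.234 and 0.0571). With OXPT all 3 #11 libraries of *TP53INP1* (129.6 to 198.6 CPM) were above all 3 esiCT libraries (51.6 to 117.6 CPM). The same held for *FDXR* (746.9 to 985.9 CPM against 589.9 to 729.8 CPM). The share of all genes separated in this way with OXPT was not computed.

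Between KO esiCT and WT no member was called in untreated cells (0.291% of all genes) or with OXPT (0.138% of all genes). *FDXR*, *RRM2B* and *TP53INP1* differed by between -0.15 and 0.25 on the log2 scale in both states. *SAT1* was at -0.62 ± 0.51 untreated and 0.054 ± 0.50 with OXPT (edgeR adjusted p = 1 and 0.998). For *TIGAR* the values were -0.17 ± 0.31 untreated and 0.80 ± 0.30 with OXPT, the latter with an unadjusted p of 0.0157 and an adjusted p of 0.763, and 0.46 without replicate 3 of WT OXPT.

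The tests of whether the response to OXPT itself depended on genotype, on esiHDAC4 or on #11 called 0% of all genes each with edgeR, and thus none of the members. DESeq2 called 0, 0 and 36 genes in these 3 tests, and again none of the members. Unadjusted p-values were below 0.05 for 201, 19 and 863 genes. Among the members this held for *TIGAR* with genotype and for *FDXR* with #11, with the values given above.

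**Figure D4:**
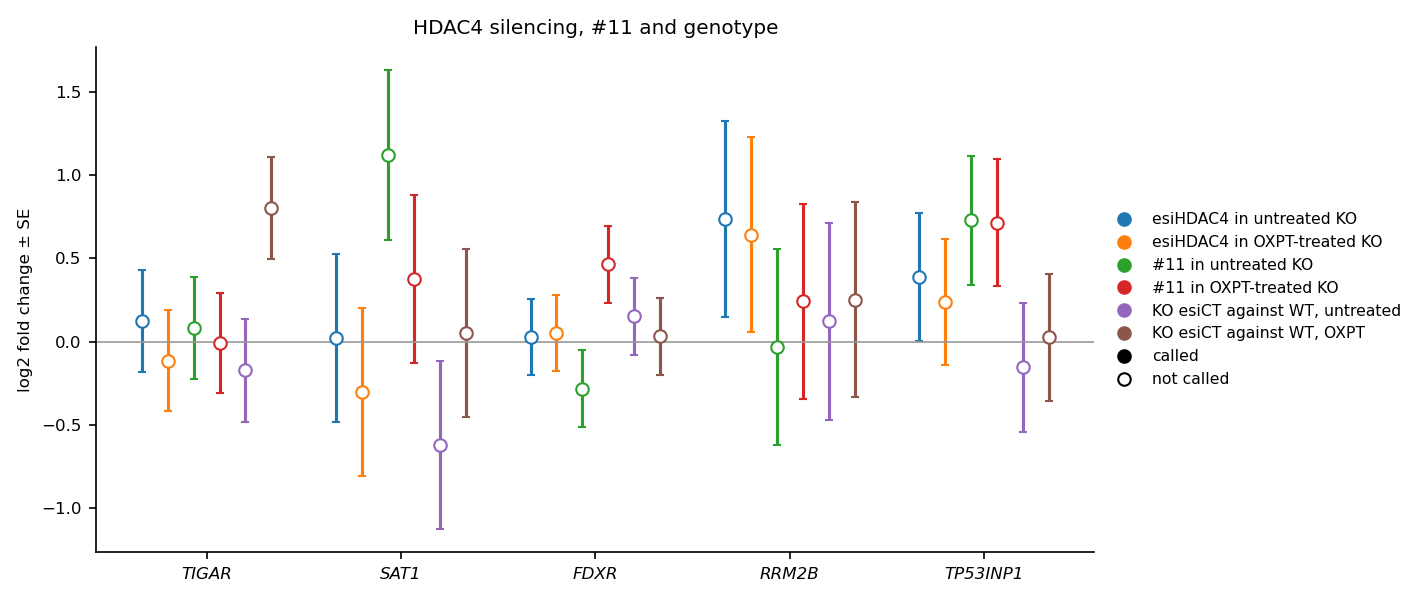
Log2 fold change with the standard error of the fit (vertical axis) for the 5 tested members (horizontal axis) in the 6 comparisons of *HDAC4* silencing, #11 and genotype. All points are open, as none was called, and the largest are *SAT1* with #11 in untreated KO (1.12) and *TIGAR* in KO esiCT against WT with OXPT (0.80).

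Other p53 targets of metabolism and redox were followed as a list of 22 genes, of which 18 were tested. In KO esiCT 8 of them were called higher and 0 lower, with a median log2 fold change of 0.83 beside 0.0099 for all genes tested. The counts of higher genes were 7 in KO esiHDAC4, 8 in KO #11 and 6 in WT, with medians of 0.81, 0.89 and 0.65. The highest called gene was *TP53I3*, a quinone oxidoreductase, at 4.48 in KO esiCT and 3.45 in WT, and the lowest was *GPX1*, a glutathione peroxidase, at 0.88 (edgeR adjusted p = 0.041). The call of *GPX1* was lost in 15 of 32 alternatives, with 0.67 (adjusted p = 0.188) without replicate 3 of KO esiCT OXPT. *SLC7A11*, the cystine transporter, was the only gene of this list called lower, in KO #11 (-3.51, adjusted p = 0.0105, where 3.57% of all genes were lower), and it is named after its value was seen.

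The p53 targets of arrest, death, repair and feedback, 30 genes of which 29 were tested, were called higher in 22, 23, 22 and 23 cases in KO esiCT, KO esiHDAC4, KO #11 and WT, and none was called lower. Their medians were 1.91, 1.78, 1.54 and 1.5. *CDKN1A*, the cell cycle inhibitor p21, had the highest log2 fold change of the list in KO esiCT (3.18, and 2.55 in WT), *MDM2*, the ligase that degrades p53, had 2.58 and 1.84, and the lowest called was the death receptor *TNFRSF10B* (1.11, adjusted p = 0.0481, lost in 21 of 32 alternatives). *FDXR* and *TP53INP1* thus lay above the median of this list in each of the 4 arms, and *TIGAR*, *RRM2B* and *SAT1* lay below it. With #11 in untreated KO cells 1 gene of the list was called, the BH3-only gene *PMAIP1* (1.96, adjusted p = 0.039), also named after its value was seen.

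Paralogs and partners of the members, 25 genes of which 22 were tested, gave no higher call in any arm. Medians of -0.18, -0.030, -0.062 and -0.16 were found in KO esiCT, KO esiHDAC4, KO #11 and WT. The other ribonucleotide reductase subunits *RRM1* and *RRM2* stood at -0.50 and -0.50 in KO esiCT and at -0.65 and -0.90 in WT (edgeR adjusted p = 0.568, 0.358, 0.465 and 0.0843). Without replicate 3 of KO esiCT OXPT the values in KO esiCT were -0.16 and -0.28. Leaving out single libraries moved *RRM1* as far as -0.97 in KO esiCT, without OXPT replicate 1, and between -0.98 and -0.28 in WT, without untreated replicates 3 and 2. The ferredoxin *FDX1* and the polyamine enzymes *ODC1* and *SMOX* lay between -0.37 and 0.27 in KO esiCT and WT, while *SAT2*, a paralog of *SAT1*, was at 0.97 (adjusted p = 0.0857) and 0.52. For *SAT2* the value in KO esiCT was 0.50 (adjusted p = 0.486) without OXPT replicate 3, and that in WT was 0.17 without untreated replicate 2 and 1.14 (adjusted p = 0.0245) without untreated replicate 3. With the replicate block *SAT2* passed in KO esiCT (0.92, adjusted p = 0.0296) and *RRM2* in WT (-0.94, adjusted p = 0.00966). *FDX2* was below the count minimum. Lower calls were made for *HIPK2*, a kinase of p53, in KO esiHDAC4, KO #11 and WT (-1.03, -1.12 and -1.40, where 5.54%, 3.57% and 5.6% of all genes were lower) and for *DCK*, a deoxycytidine kinase, in KO esiHDAC4 (-1.04), both named after their values were seen.

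**Figure D5:**
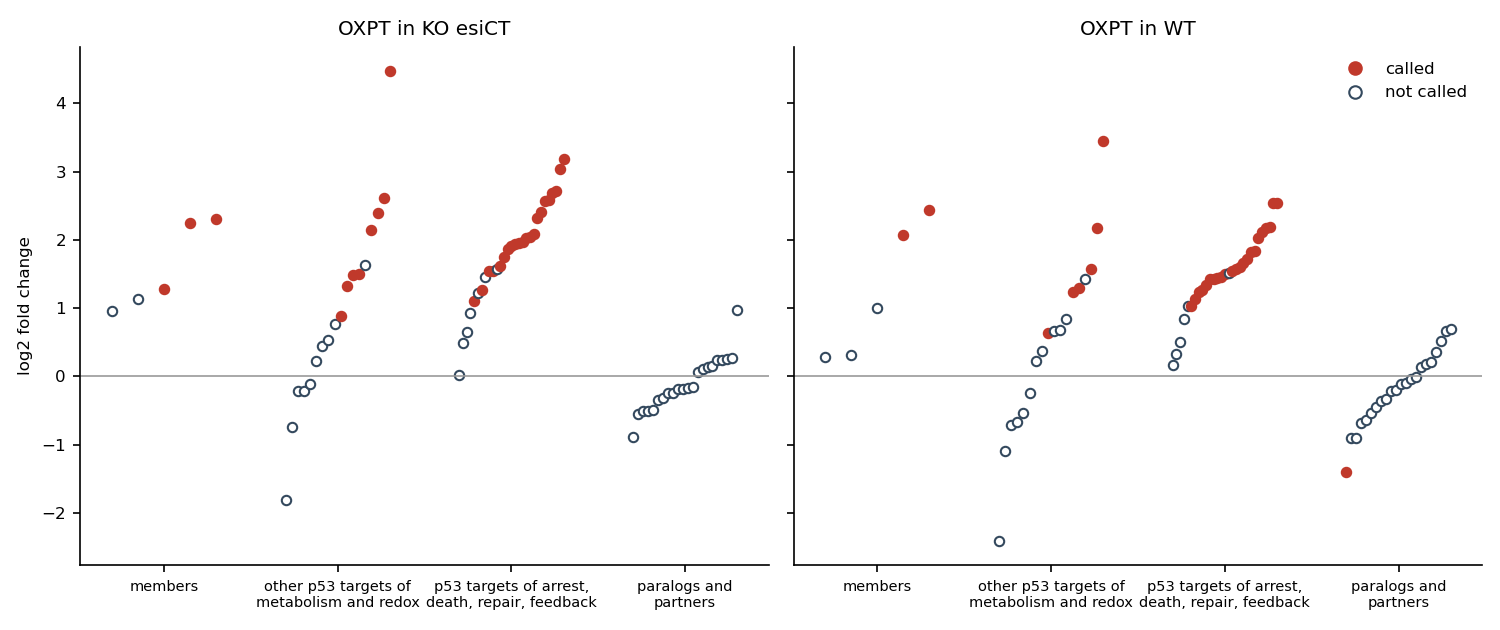
Log2 fold change with OXPT (vertical axis) in KO esiCT and in WT for the 5 tested members and the tested genes of the 3 lists, ordered by value within each list, with called genes in red. Among the genes of arrest and death 22 of 29 are red in KO esiCT and 23 of 29 in WT, and no paralog or partner is red above 0 in either panel.

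Across the 24 libraries, the genes whose log2 CPM followed each member most closely are given as a description, and all points share the split into untreated and OXPT. For *FDXR* these were *EPS8L2* (Pearson r = 0.99), *GRIN2C* (0.98), which is its next neighbour on the same strand of chromosome 17, and *PGF* (0.98). *TP53INP1* was followed by *ANKRA2* (0.97), *PTPRE* (0.95) and *IKBIP* (0.94), and *RRM2B* by *PGAP1* (0.96), *HSPA4L* (0.94) and *ZNF440* (0.94). The closest genes to *TIGAR* were *FBXW7* itself (0.90), *TDG* (0.88) and *MDM2* (0.86). In the low library of WT OXPT, replicate 3, *FBXW7* stood at 13.4 CPM, against 42.0 and 33.7 CPM in the other two replicates, as *TIGAR* did at 4.72 against 12.98 and 12.9 CPM. For *SAT1* they included *LAMB2* (0.91) and *LYRM9* (0.90). Among the members themselves *FDXR* and *TP53INP1* were closest (r = 0.90), and *RRM2B* and *SAT1* farthest apart (r = -0.066).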

How the data were processed

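RNA-seq of HCT-116 cells was analysed in 24 of 36 libraries, in 8 groups of 3. The other 12, all WT, carry opposite OXPT states in their title and treatment entries and entered no comparison. The authors deposited raw counts per gene, 1 table per library, without normalization, with unstranded, forward and reverse columns. The submitters' processing notes name Trimmomatic 0.39, STAR 2.7.11a and hg38; the annotation is not given in the sources used here. In the paper's methods, salmon and DESeq2 are described instead. Although the kit is labelled stranded, reverse and forward totals were nearly equal (ratio 1.00 to 1.02), so the unstranded column was used. In it 10.6% to 12.2% of reads were ambiguous, since reads where genes overlap on either strand are set aside.

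Tests were run with edgeR 4.0.16 in R 4.3.3 (TMM, quasi-likelihood F test, 1 coefficient per group over the 24 libraries), on the 12356 genes whose mean count reached 64 in any group, for 13 comparisons. The SE was computed as the log2 fold change divided by the root of its F statistic. CPM values are TMM-normalized; a prior count of 2 was added before taking log2. GENCODE 44 matched 62130 identifiers with their version and 62686 without it. Of 24 replicate pairs 0 were identical, with a chi-square per degree of freedom of at least 8.31. Alternatives were DESeq2 1.42.0, RLE factors, 2 other count minimums, each strand column, only the groups compared, a replicate block and leaving out each library.

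Replicate numbers were taken to pair libraries where deviations from the group means correlated above 0.1 in every pair. The main fit still has no replicate term, and the replicate block was run as an alternative only. The lowest correlations were 0.325, 0.202, 0.275 and 0.176 for OXPT in KO esiCT, KO esiHDAC4, KO #11 and WT. The esiHDAC4 and genotype comparisons were paired as well, and the #11 comparisons were not. The members and lists were chosen with earlier results of these data known, and the lists come from general knowledge. Named genes are the members, *HDAC4*, *FBXW7*, *CDKN1A*, *MDM2*, 8 paralogs or partners, the highest and lowest called gene of each other list in KO esiCT, and the 3 protein-coding genes most correlated with each tested member; 2 genes that this rule names are not reported here.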

Additional observations from a re-analysis of the deposited data

Results flagged for a closer look

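Of the 12 WT libraries whose labels give opposite OXPT states, some held levels of the members above the highest of the 12 untreated libraries with a settled state, all scaled together. *FDXR* ranged from 86.2 to 707.4 CPM (median 273.8), and 8 of the 12 were above the highest untreated library of 162.9 CPM. *TP53INP1* reached 152.6 CPM, with 7 libraries above 42.0 CPM. The highest values of the others were 18.8 CPM for *TIGAR*, 122.9 CPM for *RRM2B* and 2668 CPM for *SAT1*, with 4 libraries each above the highest untreated level of 11.2, 59.5 and 1583 CPM. These libraries are unassigned, so they are given as values and not as replicates of a group.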

How the results depend on the processing

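*FDXR* and *TP53INP1* kept their calls in all 4 arms under each of 32 alternatives, as did *TIGAR* in KO esiCT; *TIGAR* lost its call in 7 of 32 in KO esiHDAC4 and in 3 of 32 in KO #11, among them forward-strand counting in both (0.97 and 0.97). Leaving out single libraries gave 2 to 3 called members in KO esiHDAC4 and in KO #11. Without a count minimum, 5 members were called for OXPT in KO esiCT, where 1866 genes were called in all, against 1398 in the main fit. In that setting 1 member was called for #11 in untreated KO. *TIGAR* lost its call in KO esiHDAC4 without a count minimum, and 3 members were called in that arm. *RRM2B* passed in every arm in that setting (edgeR adjusted p from 9.88e-05 to 0.0292). In KO esiCT the edgeR adjusted p of *CDKN1A* also fell, from 1.65e-05 to 1.08e-26, and that of *MDM2* from 0.00192 to 9.61e-17. The cause was not tested. The replicate block also called 1 member for #11 in untreated KO, *SAT1* (1.16, adjusted p = 0.0179), where the numbers do not pair the libraries. In that comparison the block called 397 genes in all. The block moved the counts of all genes called with OXPT from 1398, 1480, 1175 and 1322 to 1946, 2061, 1713 and 1885. A count minimum of 64 in every group gave 907, 943 and 836 genes in KO esiCT, KO esiHDAC4 and WT, and fitting only the groups compared gave 553, 2635 and 84 in KO esiCT, KO #11 and WT. Leaving out single libraries gave 785 to 1880, 816 to 1911, 567 to 1494 and 850 to 2105. Of the values that were not called, some changed sign when single libraries were left out: *SAT1* ran from -0.078 (without OXPT replicate 3) to 0.63 in KO #11 and from -0.078 (without untreated replicate 2) to 1.04 in WT. In KO esiCT *FDX1* ran from -0.23 to 0.25 and *SMOX* from -0.013 to 0.54, where the sign turned without OXPT replicate 3, and *FDX1* was also -0.023 without a count minimum. In WT *FDX1* ran from -0.065 to 0.35, *SMOX* from -0.47 to 0.79 and *TNFRSF10B* from -0.016 to 1.21.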
